A study of Mus musculus with 4 samples.

Results

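Cdkn1a-positive tumour cells were taken from medulloblastomas of 4 littermate mice and set against tumour cells of the same mice in which no Cdkn1a molecule was counted. A cell had to have at least 500 detected genes, at least 1500 unique molecular identifiers (UMIs, each standing for 1 captured RNA molecule) and at most 10% of UMIs from mitochondrial genes. It also had to hold fewer than 3 UMIs summed over Lhfpl3, Olig1, Aqp4, Aldoc, Slc25a18, Tyrobp and C1qb, which mark glia and myeloid cells. Of 5670 barcodes, 2765 met the quality limits and 2587 of these were kept as tumour cells. Cdkn1a-positive cells were selected on the Cdkn1a count itself, 1 or more UMIs, and numbered 555, with 137, 111, 133 and 174 in mice 1 to 4. All 4 mice carried Atoh1-cre:SmoM2 and gave their tumours at postnatal day 20. In this model Cre under the Atoh1 promoter switches on SmoM2, a Smoothened that signals without ligand, in the cerebellum's granule neuron precursors, and tumours of the Sonic hedgehog (SHH) type follow. No mouse without SmoM2 was analysed here, so both sets of cells carry the activated pathway.

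Cdkn1a encodes p21, which binds and inhibits cyclin-dependent kinases and also binds the replication clamp PCNA. It is a classical target of p53, the transcription factor encoded by Trp53 that responds to DNA damage, and p21 can hold a cell before DNA replication or before mitosis. Granule neuron precursors normally stop dividing and mature into granule neurons, and in SHH medulloblastoma many keep dividing. The p21 protein is itself broken down during DNA replication, so transcript and protein need not go together, and protein was not measured.

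In the GENCODE annotation of mouse build GRCm38, Cdkn1a spans chr17:29090976-29100727 on the plus strand. RefSeq lists 2 starts for it, and the region around the upstream one, chr17:29090729-29091028 (GRCm38.p6, plus strand), is shown because it holds a repeat of CATG, the core letters of many p53 binding sites. Capitals mark the match to CATGNNNNNNCATG, which begins 48 bases before that start (position -48).
Cdkn1a upstream start: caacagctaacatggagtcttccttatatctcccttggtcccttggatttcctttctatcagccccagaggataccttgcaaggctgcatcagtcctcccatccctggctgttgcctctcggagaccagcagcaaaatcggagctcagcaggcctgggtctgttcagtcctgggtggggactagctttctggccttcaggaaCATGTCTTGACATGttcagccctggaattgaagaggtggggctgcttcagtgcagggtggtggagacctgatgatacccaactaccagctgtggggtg
On either strand, this motif was present in 0.77% of 27025 gene-start windows of 300 bases (RefSeq, 1 per gene), and in none of the 17 windows found for the genes that differed below. The window at the downstream start of Cdkn1a did not hold it. Libraries were read from the 3′ end, so RNA from the 2 starts was counted together.

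Cdkn1a was sparse. It was counted once in 388 of the 555 positive cells and 2 or more times in 167, with 11 UMIs as the highest count, in a cell of mouse 4. The cells just outside the threshold are the 2032 tumour cells with 0 UMIs. Among positive cells the median level was 4.08, 3.36, 5.06 and 2.88 Cdkn1a UMIs per 10000 UMIs in mice 1 to 4, and single cells ranged between 0.624 and 45.7. These values chose the cells and are given as a description.

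Positive cells made up 14.7% (exact Clopper-Pearson 95% interval 12.5 to 17.1), 21.1% (17.7 to 24.8), 30.9% (26.6 to 35.5) and 25.0% (21.8 to 28.4) of the tumour cells of mice 1 to 4, a mean of 22.9% ± 6.82 (SD, n = 4). The share rose with the depth of the cell. Over all mice it was 14.2% in cells with 1500 to 1999 UMIs and 38.6% in cells of 6000 UMIs or more. With each cell thinned to 1500 UMIs the shares were 9.21%, 9.89%, 23.5% and 11.6%. Mouse 3, the shallowest library with a median of 2043.5 UMIs per tumour cell, then stood above the other mice. Its summed Cdkn1a level over all tumour cells was 201 CPM (the gene's UMIs per 1000000 UMIs), against 71.1, 85.4 and 103 CPM in mice 1, 2 and 4. Mouse 3 was thus the highest both by share and by level, although its cells were the shallowest.

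**Figure D1:**
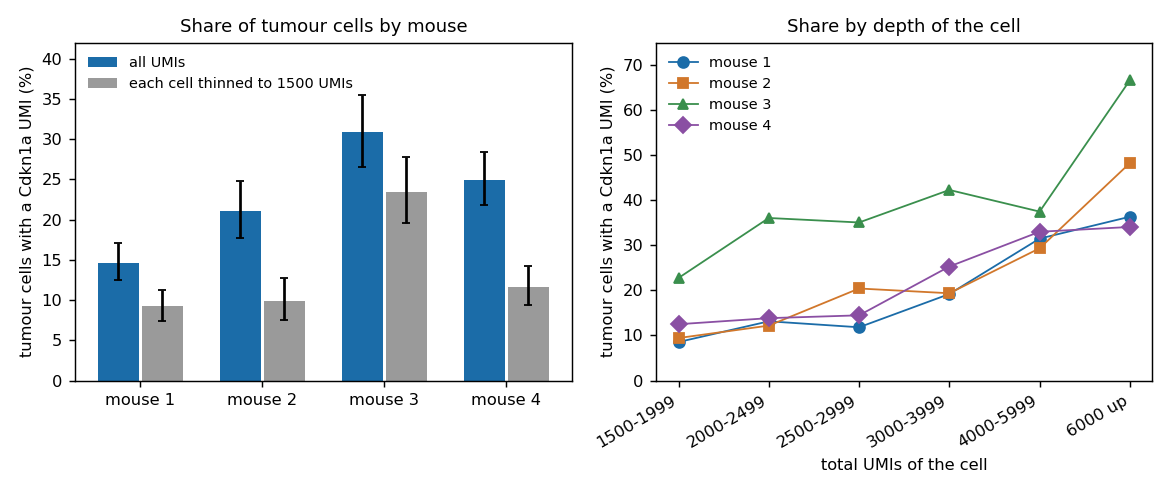
Share of tumour cells with a Cdkn1a UMI. The left panel gives each mouse with all UMIs and after thinning every cell to 1500 UMIs, as bars with exact 95% intervals; the right panel gives each mouse by the total UMIs of the cell. Shares climb with depth, and mouse 3 lies above the other mice at each depth below 6000 UMIs and in the last group, which holds 6 of its cells.

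The label of tumour cell was checked against markers. The 10 granule lineage markers (Atoh1, Barhl1, Zic1, Zic2, Pax6, Neurod1, Mfap4, Cntn2, Tubb3 and Nhlh1) summed to 2024, 1955, 2025 and 2221 CPM in the positive cells of mice 1 to 4, and 544 of 555 cells held at least 1 of their UMIs. In the 178 barcodes that the 7 genes set aside, the same markers summed to 1400 to 1707 CPM and 142 barcodes held one, so these markers were lower there but not absent. Myeloid markers outside the rule summed to 0 to 2.89 CPM and erythroid markers to 0. Astroglia markers outside the rule summed to 500 to 656 CPM, against 2177 to 11981 CPM in the barcodes set aside. At least 1 of their UMIs was held by 423 of the 555 positive cells and by 171 of the 178 barcodes. Oligodendrocyte precursor markers outside the rule were held by 196 positive cells and 110 of the barcodes. Oligodendrocyte markers were held by 142 positive cells and 85 of the barcodes, and reached 225 CPM in the positive cells of mouse 4. Some cells of other types passed the rule. Markers of oligodendrocytes, choroid plexus and ependyma, endothelium, mural cells and fibroblasts, myeloid cells, lymphocytes, erythroid cells and GABAergic neurons were summed. Of these markers, 3 or more UMIs were held by 25 positive and 27 matched cells, 22 of each in mouse 4. Astroglia and oligodendrocyte precursor markers were not in this count. The precursor markers summed to 116, 123, 159 and 139 CPM in positive cells of mice 1 to 4, against 103, 95.9, 164 and 70.8 CPM in matched cells. For astroglia markers the sums were 656, 636, 500 and 628 CPM, against 692, 591, 622 and 785 CPM in matched cells. Choroid plexus markers came from few cells, 1 positive and 3 matched with 10 or more of their UMIs, and reached 921 CPM in positive and 3660 CPM in matched cells of mouse 4, and 0 CPM in positive and 790 CPM in matched cells of mouse 1. Among the 178 barcodes set aside, 22.5% held a Cdkn1a UMI at a median of 3124 UMIs, against 21.5% of all tumour cells at a median of 2761. Having a Cdkn1a UMI was therefore about as frequent outside the tumour cells, and the part of free RNA in droplets was not tested.

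The first question was where in the cell cycle Cdkn1a lay. Each cell was thinned to 1500 UMIs and classed from its S phase and G2 and mitosis genes as S, G2M or neither. Over all UMIs of the cells so classed, Cdkn1a in mice 1 to 4 stood at 0.519, 0.579, 1.78 and 0.940 UMIs per 10000 in cells of neither class. In the S class it stood at 0.772, 0.876, 2.59 and 1.01, and in the G2M class at 0.881, 1.11, 1.77 and 1.09. Cells with an S programme thus held more Cdkn1a than cells of neither class in each mouse, and cells of the G2M class did so in each mouse other than mouse 3. Counted after thinning, mouse 3 had 1.87 in the G2M class and 1.79 in neither, so that exception turned, while the S class stayed above neither in each mouse. Across low, middle and high levels of the granule differentiation genes, Cdkn1a averaged 1.18 ± 0.637, 1.12 ± 0.453 and 1.15 ± 0.677 UMIs per 10000 (SD, n = 4 mice), so the groups overlapped. Because Cdkn1a defines the positive cells, these levels are a description with no test.

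**Figure D2:**
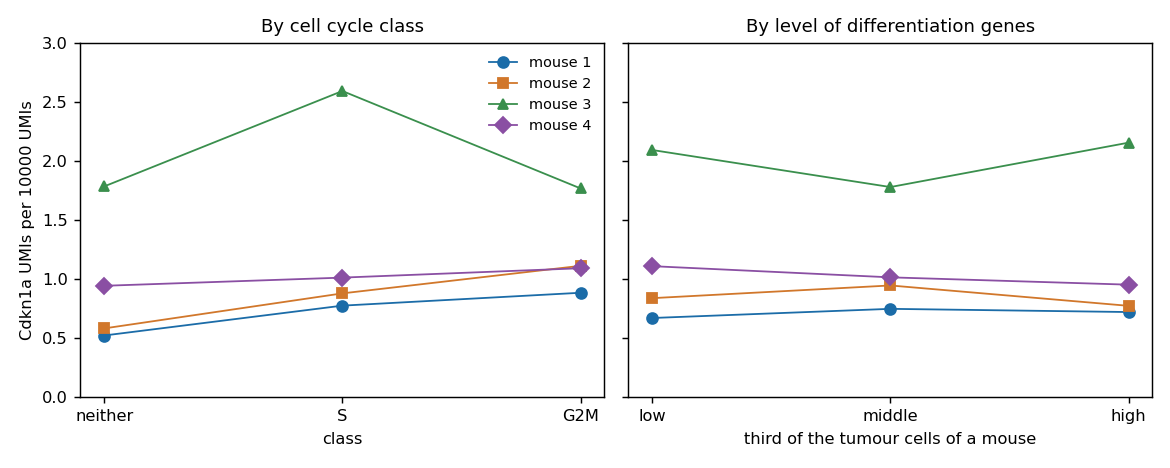
Cdkn1a level (UMIs per 10000 UMIs) in tumour cells of each mouse, by cell cycle class and by level of the granule differentiation genes; each point is 1 mouse. In the S class every mouse lies above its own value in neither class, with mouse 3 highest at 2.59, while the 3 levels of differentiation overlap.

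To compare other genes at equal depth, each positive cell was paired with 1 cell of 0 Cdkn1a UMIs from the same mouse and nearest in total UMIs. Median UMIs per cell were then 2783, 3687, 2292 and 4330 in positive cells, against 2785, 3688, 2286 and 4355 in matched cells. A count of 0 does not show that a cell lacked Cdkn1a RNA, so the matched cells include some that missed it by sampling.

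In each mouse a smaller share of positive cells fell outside S and G2M. The class of neither S nor G2M held 32.1%, 28.8%, 20.3% and 24.1% of positive cells, against 39.4%, 41.4%, 28.6% and 27.0% of matched cells, lower in 4 of 4 mice. The mean difference was -7.76 ± 4.00 percentage points (SD, n = 4). S phase cells were 29.2%, 27.9%, 36.1% and 28.7% of positive cells, against 22.6%, 26.1%, 24.8% and 28.2% of matched cells. That share was higher in 4 of 4 mice, by 5.06 ± 4.89 points, and the gap in mouse 4 was 0.575 points. The G2M share differed by 2.71 ± 5.84 points and was lower in mouse 3. The 2-sided exact sign-flip tests gave p = 0.125 for neither and for S, and 0.5 for G2M. With 4 mice 0.125 is the smallest p this test can give, so no share could pass 0.05. Adjusted over the 3 classes (Benjamini-Hochberg), these exact tests gave 0.188, 0.188 and 0.5.

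**Figure D3:**
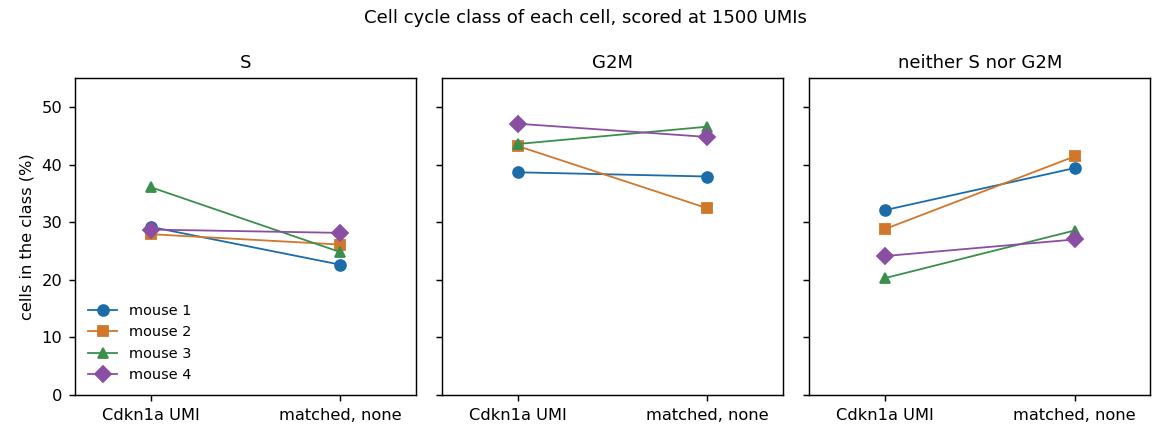
Share of cells (%) in the S class, the G2M class and neither, for Cdkn1a-positive cells on the left of each panel and depth-matched cells with none on the right; each line is 1 mouse. The lines of neither class rise toward the matched cells in all 4 mice, while G2M lines cross.

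Mki67, which encodes the proliferation antigen Ki-67, and Top2a, the DNA topoisomerase of dividing cells, mark cycling cells. After thinning to 1500 UMIs, 48.2%, 53.2%, 51.1% and 50% of positive cells held a UMI of either gene, against 36.5%, 31.5%, 44.4% and 39.7% of matched cells. The share was higher in 4 of 4 mice, by 12.6 ± 6.36 points (SD, n = 4; exact 2-sided sign-flip p = 0.125). With cells thinned to 2000 UMIs the difference was 4.71 points and mouse 3 had -6.14. The summed level of Mki67 averaged 281 ± 16.7 CPM in positive and 278 ± 30.7 CPM in matched cells. In the edgeR test across all genes described next, Mki67 did not pass at equal depth (log2 fold change 0.00095). It passed with up to 3 nearest cells (0.31, edgeR adjusted p = 0.0366) and against all cells of 0 UMIs (0.43, 0.00129). Neither choice held depth equal in all mice. In mouse 4 the median was 4330 UMIs in positive cells, 3462 in the 3 nearest and 3456 in all cells of 0 UMIs. With 3 nearest cells, mouse 1 had 2783 against 2785, and only 116 of the 133 positive cells of mouse 3 were kept. The part of depth in these 2 results was not tested.

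Across all genes, UMIs were summed per mouse and set of cells and tested with edgeR's quasi-likelihood test with the mouse as a block. Of 5804 genes tested, 22 had a Benjamini-Hochberg adjusted p below 0.05 (0.379%), 17 of them higher in positive cells (0.293%) and 5 lower (0.0861%). These 22 are referred to as having passed the test. Where values of the 2 sets are said below not to overlap, this is a description of the mice. How many of all genes tested lacked overlap was not counted, so it adds no support to a test. At an unadjusted p below 0.05 there were 476 genes, 253 higher and 223 lower. Of the 22 genes that passed, 3 are in the S phase list and 2 in the integrated stress response list, and all of these were higher. The G2 and mitosis list holds 6 of the 22, of which 5 were lower. The others of the 22 are in no list. Cdkn1a and the 7 genes of the rule were left out of the test. With each mouse left out in turn, 3 of the 22 genes passed every time (Hist1h1b, Hist1h2al and Tubb5). A further 3 passed in none of these smaller tests (Mthfd2, Srsf10 and Esco2), and the other 16 lost the call without at least 1 mouse. The balance of directions also depended on the mice: 10 higher and 4 lower genes passed without mouse 1, 9 higher and 13 lower without mouse 2, 9 higher and 3 lower without mouse 3, and 5 higher and 0 lower without mouse 4.

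Of 43 listed S phase genes, which serve DNA replication, 41 could be tested, of which 3 rose and 0 fell, and the list's median log2 fold change was 0.24 with 36 values above 0. Over all genes tested the median was -0.00095, 0.293% rose, and 2890 of 5804 values lay above 0 (49.8%). The summed S phase list stood at 5537, 5102, 5486 and 5500 CPM in positive cells, against 4383, 4414, 4451 and 4543 CPM in matched cells, with no overlap between the sets. Since the same list enters the S class, that class and this list are not separate evidence.

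Slbp, the stem-loop binding protein that histone messages need for their processing and translation, stood at 349, 295, 378 and 300.2 CPM in positive cells, against 230, 259, 235 and 193 CPM in matched cells. Every positive value lay above every matched one, and the gene rose by 0.52 ± 0.10 log2 units (SE, derived from the test statistic; edgeR adjusted p = 0.00565). Rrm2, the subunit of ribonucleotide reductase that limits the supply of DNA building blocks, stood at 334, 302, 173 and 270.2 CPM in positive cells, against 230, 158, 149.5 and 206 CPM in matched cells. It rose by 0.51 ± 0.11 log2 units (edgeR adjusted p = 0.017), higher in 4 of 4 mice with overlapping ranges. Members that did not pass the test include Pcna, the clamp to which p21 binds, at 165 ± 17.1 CPM in positive and 135 ± 31.8 CPM in matched cells (log2 fold change 0.31, edgeR adjusted p = 0.437). The licensing gene Cdc6 had a log2 fold change of 0.86 (edgeR adjusted p = 0.278), with 76 UMIs in positive and 41 in matched cells, so its value is loose.

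Other genes that rose are in none of the lists. Hist1h1b, a linker histone made for newly copied DNA, stood at 256, 194, 205 and 198 CPM in positive cells, against 152, 100.3, 114 and 104 CPM in matched cells. It had the lowest p of all genes (log2 fold change 0.86 ± 0.12, edgeR adjusted p = 0.000202), and the 2 sets did not overlap. The core histone Hist1h2al rose by 0.73 ± 0.12 (edgeR adjusted p = 0.00202). Such histone messages mostly lack the poly(A) tail by which these libraries capture RNA, and histone genes have close copies between which reads can be split, so both levels are uncertain. 2810417H13Rik, now named Pclaf and encoding a PCNA-associated factor, stood at 683, 854, 725 and 678 CPM in positive cells, against 520.0, 477, 542 and 573 CPM in matched cells. It rose by 0.44 ± 0.08 (edgeR adjusted p = 0.00295). Esco2, which acetylates cohesin as DNA is copied, rose by 0.64 ± 0.14 log2 units (edgeR adjusted p = 0.036), and Pbk, a kinase of dividing cells, by 0.52 ± 0.09 (edgeR adjusted p = 0.00565). Neither overlapped between the sets.

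Smaller rises came with high precision in abundant genes. Tubb5, a beta-tubulin, stood at 4238, 3933, 3978 and 3794 CPM in positive cells, against 3611, 3268, 3381 and 3255 CPM in matched cells (log2 fold change 0.23 ± 0.03, edgeR adjusted p = 0.000605). The alpha-tubulin Tuba1b rose by 0.25 ± 0.05 and Ranbp1, a regulator of Ran in nuclear transport and the spindle, by 0.27 ± 0.05. Srsf10, a splicing factor, rose by 0.48 ± 0.11 log2 units (edgeR adjusted p = 0.031). Tubulins are a family of close copies, so reads could be split among them.

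Of 53 listed G2 and mitosis genes 52 could be tested, of which 5 fell and 1 rose. Of all 52 values 31 lay below 0 and 21 above, with a median log2 fold change of -0.11. Over all genes tested 0.0861% fell and 0.293% rose, and 49.8% of values lay above 0. The summed list did not move one way, at 10904, 12781, 11474 and 12153 CPM in positive cells, against 10730, 11094, 13831 and 13942 CPM in matched cells. It was higher in mice 1 and 2 and lower in mice 3 and 4. The 5 genes that fell are Cdc20, Cks2, Tubb4b, Cenpa and Cenpe, and without mouse 4 none of them passed (edgeR adjusted p of 0.0812 to 0.525). Without mouse 3 Cdc20 alone of them passed.

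Cdc20, the activator of the anaphase-promoting complex, which starts chromosome separation, stood at 198, 244, 162 and 199 CPM in positive cells, against 330.3, 272, 323 and 368 CPM in matched cells. It fell by 0.71 log2 units (SE 0.11, edgeR adjusted p = 0.000644) with no overlap. Cks2, a small partner of cyclin-dependent kinases, stood at 407, 530.5, 413 and 489 CPM, against 475, 595, 604 and 749.5 CPM in matched cells, and fell by 0.42 (edgeR adjusted p = 0.00565). Each mouse was lower for both genes.

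Cenpa, the histone variant of centromeres, stood at 325, 359, 347 and 333 CPM in positive cells, against 395, 430.3, 510.2 and 439 CPM in matched cells (log2 fold change -0.38 ± 0.08, edgeR adjusted p = 0.0174). Cenpe, a kinesin that lines up chromosomes, stood at 116, 147, 83.8 and 131 CPM, against 167, 169, 149.5 and 214 CPM in matched cells (log2 fold change -0.57 ± 0.12, edgeR adjusted p = 0.0279). Neither gene overlapped between the sets. Tubb4b, a beta-tubulin, fell by 0.35 (edgeR adjusted p = 0.00647).

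Top2a was the gene of this list that passed upward, at 552, 623, 477 and 575 CPM in positive cells, against 373, 404, 496 and 460.1 CPM in matched cells. It rose by 0.36 ± 0.08 log2 units (edgeR adjusted p = 0.0379), with 3 mice higher and mouse 3 slightly lower. Genes of the same list that did not pass the test include Ccnb1, the mitotic cyclin B1, at a log2 fold change of -0.46 (edgeR adjusted p = 0.168), Plk1 at -0.34 (0.624) and Cdk1 at 0.23 (0.446).

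The 5 falls did not pass with 2 other choices of cells. Against all 2032 cells with 0 UMIs, which are shallower, the log2 fold changes were -0.25 for Cdc20, -0.06 for Cks2, -0.06 for Tubb4b, -0.04 for Cenpa and -0.10 for Cenpe, and none passed the edgeR test (adjusted p of 0.21 to 0.93). With up to 3 nearest cells, which used up nearly all cells of 0 UMIs in mice 3 and 4, none of the 5 passed either. That choice also kept only 116 of the 133 positive cells of mouse 3. Top2a at 0.72 and Hist1h1b at 0.94 passed against all cells of 0 UMIs too. Matched within the same cell cycle class, all 5 falls passed the edgeR test. Log2 fold changes there were -0.65 for Cdc20, -0.40 for Cks2, -0.34 for Tubb4b, -0.42 for Cenpa and -0.60 for Cenpe. The class is scored partly from the list that holds these 5 genes, so the class and the falls are not independent.

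**Figure D4:**
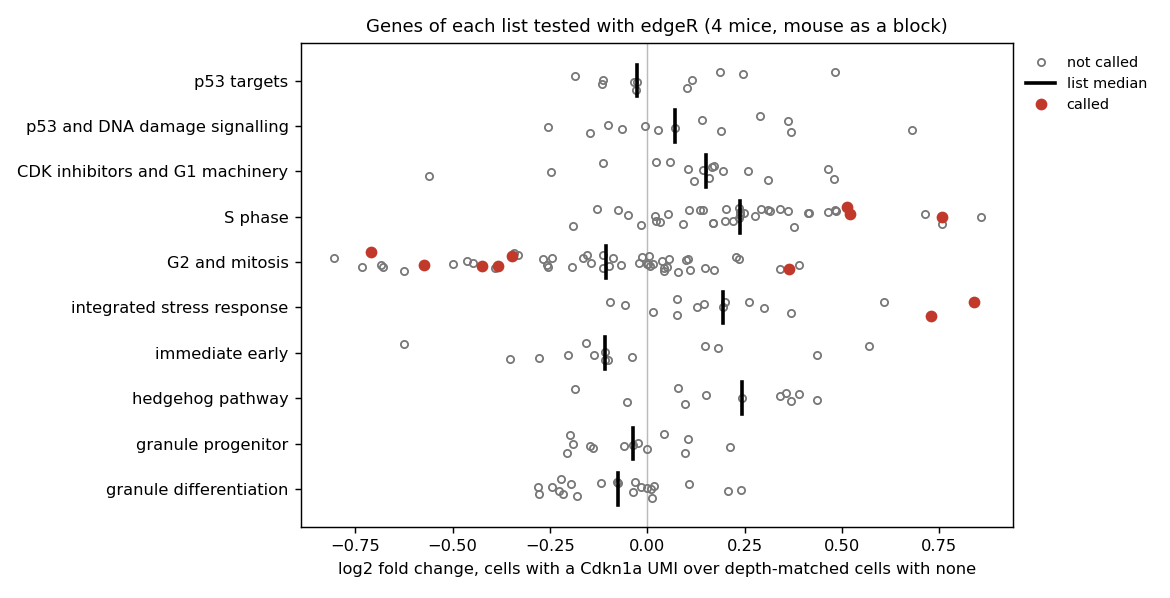
Log2 fold change of each tested gene in 10 of the gene lists, Cdkn1a-positive over depth-matched cells; red points passed the edgeR test, open points did not, and the bar is the list's median. The S phase list lies mostly to the right with a median of 0.24, the G2 and mitosis list has its 5 falling genes on the left, and the p53 targets lie around 0.

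The windows at the starts of Cdc20 and Cenpa are shown because 3 of the 5 genes that fell (Cdc20, Cenpa and Tubb4b) hold TTTGAA, the letters of the cell cycle homology region through which late cell cycle genes are silenced outside G2 and mitosis. They are from RefSeq, GRCm38.p6, for Cdc20 chr4:118437294-118437593 on the minus strand and for Cenpa chr5:30666636-30666935 on the plus strand, with capitals at TTTGAA.
Cdc20: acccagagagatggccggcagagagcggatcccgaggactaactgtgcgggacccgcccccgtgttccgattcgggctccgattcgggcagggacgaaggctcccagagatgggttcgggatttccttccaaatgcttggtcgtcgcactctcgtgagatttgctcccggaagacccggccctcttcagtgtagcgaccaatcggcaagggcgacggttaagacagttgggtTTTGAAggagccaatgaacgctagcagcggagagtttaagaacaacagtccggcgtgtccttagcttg
Cenpa: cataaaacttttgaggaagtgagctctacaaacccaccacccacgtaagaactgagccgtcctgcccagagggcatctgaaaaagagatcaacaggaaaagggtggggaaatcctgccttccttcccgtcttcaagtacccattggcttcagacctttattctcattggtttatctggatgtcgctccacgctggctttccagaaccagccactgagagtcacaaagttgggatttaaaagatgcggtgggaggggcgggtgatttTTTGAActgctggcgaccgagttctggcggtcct
On either strand TTTGAA was present in 18.1% of all 27025 windows and in 2 of the 12 windows found for genes that rose (Ranbp1 and Top2a). CCAAT, the letters bound by the factor NF-Y, was present in all 5 windows of genes that fell, in 10 of those 12, and in 37.9% of all windows. A match is a description of letters and was not tested for function.

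No listed p53 target passed the test, from which Cdkn1a was left out because it defines the positive cells. Of 38 listed p53 target genes other than Cdkn1a, 11 had counts enough for the test, and 0 rose and 0 fell. Their median log2 fold change was -0.03, with 5 values above 0, against 49.8% of values over all genes tested. At an unadjusted p below 0.05 there was 1 gene, Sesn1, and under DESeq2 in place of edgeR 0 passed too. The summed list stood at 1604, 1550, 1803 and 1657 CPM in positive cells, against 1522, 1672, 1642 and 1575 CPM in matched cells, higher in 3 of 4 mice.

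Mdm2, the ubiquitin ligase that p53 induces and that limits p53, stood at 33.4, 59.4, 75.1 and 67.5 CPM in positive cells, against 62.5, 42.4, 64.5 and 51.8 CPM in matched cells. The sets overlapped (log2 fold change 0.11 ± 0.20, edgeR adjusted p = 0.934). Bax, which opens the mitochondrial membrane in cell death, stood at 258, 233, 243 and 263 CPM, against 232, 223, 185 and 225 CPM in matched cells. Its positive values lay above its matched ones, but it did not pass the test (log2 fold change 0.19 ± 0.10, edgeR adjusted p = 0.625). Sesn1, a stress-induced regulator of growth signalling, had the lowest adjusted p of the list, 0.476 by edgeR, at a log2 fold change of 0.48 ± 0.20. Rps27l, Btg2 and Ei24 had log2 fold changes of -0.03, -0.12 and -0.03.

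The other 27 targets were too sparse to test. Ccng1, which encodes cyclin G1, had 40 UMIs in positive and 29 in matched cells. Phlda3, an inhibitor of AKT signalling, had 21 and 8, Zmat3 31 and 35, and Gdf15, a secreted stress factor, 2 and 0. Trp53 itself, a gene of the p53 and DNA damage signalling list, stood at 224 ± 75.9 CPM in positive and 234 ± 75.4 CPM in matched cells (log2 fold change -0.10, edgeR adjusted p = 0.853). None of the 13 tested genes of that list passed, and Topbp1, which activates the replication checkpoint kinase ATR, was its highest at 0.68 (edgeR adjusted p = 0.406).

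No listed inhibitor or G1 driver of the cell cycle passed, with Cdkn1a left out of the test. Of 16 tested genes of cyclin-dependent kinase inhibitors and the G1 machinery 0 passed. Their median log2 fold change was 0.15, with 13 values above 0, against 49.8% of values over all genes tested. Cdkn1b, which encodes the related inhibitor p27, stood at 101 ± 27.4 CPM in positive and 97.3 ± 26.7 CPM in matched cells. Cdkn1c, which encodes p57, had 28 and 27 UMIs. Ccnd1, the cyclin D1 gene that SHH signalling raises, had a log2 fold change of 0.16 ± 0.07 (edgeR adjusted p = 0.489), and Ccnd2 of 0.02 ± 0.05.

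Of the stress programmes, the integrated stress response had genes that rose. In this pathway, stalled translation raises the transcription factor ATF4, which switches on genes of amino acid supply. Of 24 listed genes 15 could be tested, 2 rose and 0 fell, 13 values lay above 0 and the median log2 fold change was 0.19. Over all genes tested 0.293% rose and 49.8% of values lay above 0. The summed list stood at 2398, 3007, 1442 and 1910 CPM in positive cells, against 2038, 2151, 1507 and 1738 CPM in matched cells, lower in mouse 3 and higher in the other 3 mice.

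Asns, asparagine synthetase, stood at 149, 222, 37.6 and 66.3 CPM in positive cells, against 87.0, 80.3, 35.2 and 50.6 CPM in matched cells. It rose by 0.84 ± 0.18 log2 units (edgeR adjusted p = 0.0185), higher in 4 of 4 mice but with overlap, and by far the most in mouse 2. Without mouse 2 its log2 fold change was 0.51 and it did not pass (edgeR adjusted p = 0.50), nor did it without mouse 1 (0.0845). Mthfd2, a mitochondrial enzyme of folate metabolism, stood at 111, 145, 54.9 and 77.5 CPM, against 67.0, 78.0, 20.5 and 56.9 CPM in matched cells (log2 fold change 0.73 ± 0.17, edgeR adjusted p = 0.0427). With 1 mouse left out, its edgeR adjusted p ranged between 0.0812 and 0.328.

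Slc7a1, a carrier of arginine and lysine that stood outside the lists, was at 48.9, 85.8, 52.0 and 81.3 CPM in positive cells, against 35.7, 40.1, 20.5 and 44.2 CPM in matched cells. It rose by 0.89 ± 0.20 (edgeR adjusted p = 0.0319) with no overlap, but passed without mouse 1 alone. Atf4 itself was at 203 ± 49.4 CPM in positive and 173 ± 28.0 CPM in matched cells and did not pass (log2 fold change 0.26, edgeR adjusted p = 0.585). Atf5 at 0.61, Eif4ebp1 at 0.57 (edgeR adjusted p = 0.0833) and Slc7a5 at 0.37 were higher in 4 of 4 mice without passing. Slc3a2 at 0.30 was higher in 3 mice and did not pass, and the serine enzymes Psat1 at 0.08 and Phgdh at 0.15 were near 0. Ddit3, the factor CHOP of prolonged stress, had 26 UMIs in positive and 47 in matched cells and was not tested. Nor were Nupr1 with 45 and 18, Chac1 with 24 and 13, and Trib3 with 2 and 4. Nupr1 could be tested in 3 alternatives and passed in 2. Kdelr2, a receptor that returns proteins to the endoplasmic reticulum and named here after its value was seen, rose by 0.57 ± 0.13 (edgeR adjusted p = 0.0412).

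The start of Asns is shown because it holds the letters of the site at which ATF4 is known to act with C/EBP partners. It is from RefSeq, GRCm38.p6, chr6:7693160-7693459 on the minus strand, with capitals at TGATGNAA, 23 bases before the start (position -23).
Asns: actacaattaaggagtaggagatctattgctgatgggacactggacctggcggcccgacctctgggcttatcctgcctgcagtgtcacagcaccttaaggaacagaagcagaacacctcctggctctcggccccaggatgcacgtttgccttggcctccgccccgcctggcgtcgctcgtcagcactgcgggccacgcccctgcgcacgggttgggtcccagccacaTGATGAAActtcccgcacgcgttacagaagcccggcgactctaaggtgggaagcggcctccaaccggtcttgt
On either strand TGATGNAA was present in 4.06% of all 27025 windows. Among the 12 windows found for genes that rose it was present in that of Asns alone, and so not in that of Mthfd2, and draws nothing about other sites.

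**Figure D5:**
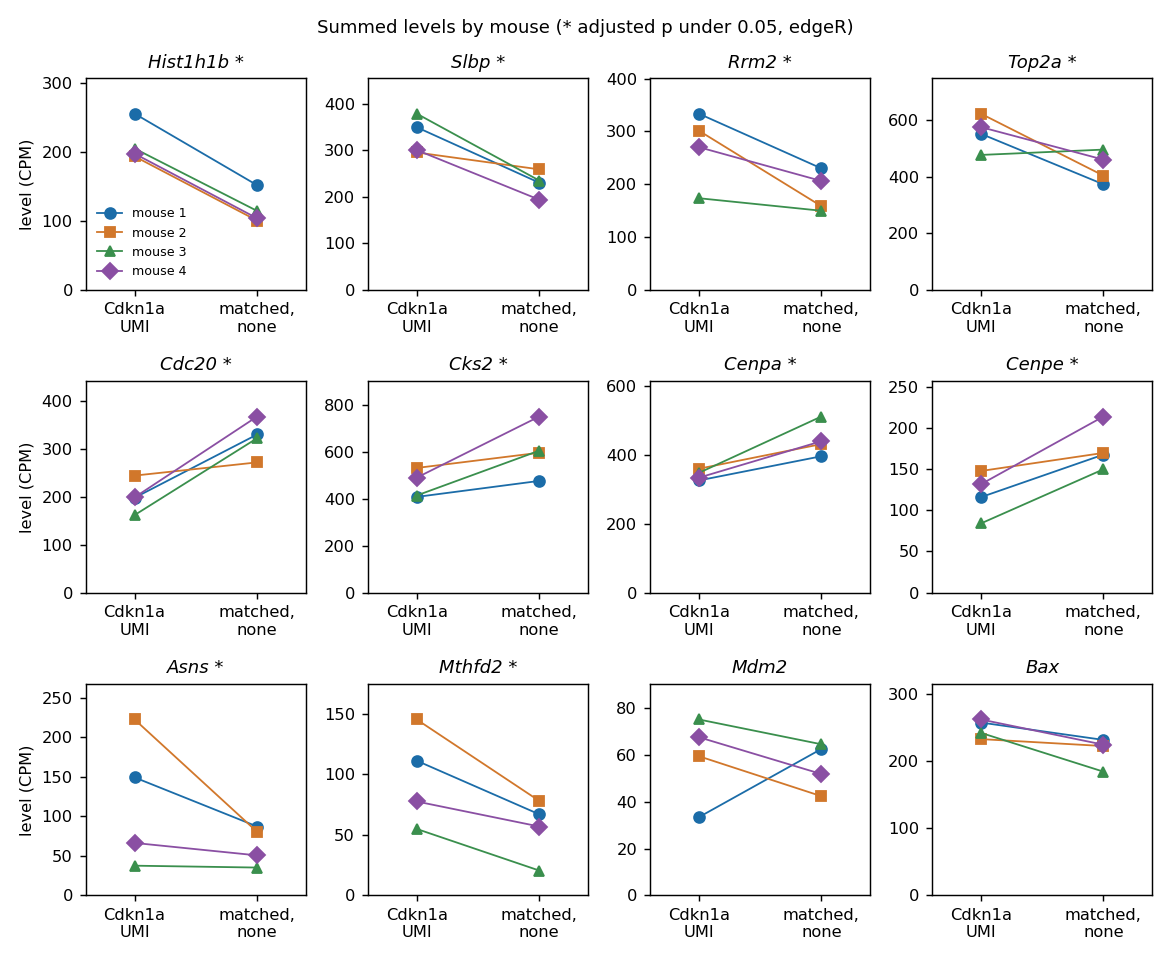
Level (CPM) of 12 genes in Cdkn1a-positive cells on the left of each panel and depth-matched cells with none on the right; each line is 1 mouse and a star marks an edgeR adjusted p below 0.05. Lines of Hist1h1b, Slbp, Rrm2, Asns and Mthfd2 are higher on the left in all 4 mice, those of Cdc20, Cks2, Cenpa and Cenpe are lower, Top2a departs in mouse 3, and those of Mdm2 cross.

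The remaining stress lists had no gene that passed. Median log2 fold changes were -0.11 over 14 tested immediate early genes, 0.10 over 11 heat shock genes, 0.01 over 13 oxidative stress genes and -0.09 over 7 hypoxia genes. Immediate early genes are induced within minutes, also by tissue dissociation. Fos stood at 120.1, 185, 124 and 185 CPM in positive cells, against 190, 158, 85.0 and 209 CPM in matched cells, with overlap (edgeR adjusted p = 0.896). Malat1, a nuclear RNA, had a log2 fold change of 0.04 ± 0.03 (edgeR adjusted p = 0.779). The median mitochondrial share was 2.63% to 3.14% over the mice in positive cells and 2.71% to 3.24% in matched cells. None of 9 tested apoptosis genes passed.

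No differentiation gene passed the test. Of 21 tested granule differentiation genes 0 passed, with 6 values above 0 and a median log2 fold change of -0.07. Of 13 granule progenitor genes 0 passed, with a median of -0.04. Over all genes tested 49.8% of values lay above 0. Neurod1, a driver of granule neuron maturation, stood at 140.1, 139, 110 and 141 CPM in positive cells, against 118, 154, 117 and 209 CPM in matched cells (log2 fold change -0.24 ± 0.13, edgeR adjusted p = 0.656). Stmn2, a microtubule regulator of growing axons, was lower in 4 of 4 mice at -0.22 ± 0.08 (edgeR adjusted p = 0.396). Atoh1, the progenitor factor whose promoter drives the Cre, was at 167 ± 20.6 CPM in positive and 175 ± 31.8 CPM in matched cells. All 7 tested granule lineage markers lay below 0, with a median of -0.19, and none passed.

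No gene of the SHH pathway passed. Of 11 tested genes 0 passed, with a median log2 fold change of 0.24 and 9 values above 0, against 49.8% of values over all genes tested. Ptch1, which encodes the receptor for SHH and is switched on by the pathway, stood at 360.4, 262, 326 and 290.2 CPM in positive cells, against 319, 256, 264 and 214 CPM in matched cells. It was higher in 4 of 4 mice and did not pass (log2 fold change 0.24 ± 0.09, edgeR adjusted p = 0.401). Gli1, the pathway's transcriptional activator, was at 42.2 ± 19.0 CPM in positive and 32.6 ± 8.15 CPM in matched cells (edgeR adjusted p = 0.746). Smo, the gene of which SmoM2 is an active form, was at 60.5 ± 2.46 CPM in positive and 43.8 ± 10.2 CPM in matched cells (edgeR adjusted p = 0.537). Whether RNA of the transgene was counted under Smo is not known, and the counts cannot tell it from the mouse's own.

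Positive cells were also compared among themselves, those with 2 or more Cdkn1a UMIs against those with 1, at equal depth and with 167 cells each. Of 2305 genes tested with edgeR 0 passed (0.0%), 111 had an unadjusted p below 0.05, and DESeq2 gave 0 passing and 4 at an unadjusted p below 0.05. The S class held 28.7% of cells with 2 or more UMIs and 32.3% of cells with 1. The G2M class held 49.7% of cells with 2 or more and 44.9% of cells with 1. The mice did not move together: with 2 or more UMIs the S share was higher and the G2M share lower in mice 2 and 3, and the reverse held in mice 1 and 4. Fos had the widest gap of the named genes, -0.94 ± 0.22 log2 units (edgeR adjusted p = 0.18), and Cdc20 was at 0.10 ± 0.23.

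Each of the 22 genes kept its direction in all alternatives in which it could be tested, other than the comparison among cells of neither cell cycle class, where 1971 genes could be tested, 0 passed and Tubb4b, Cenpa, Tubb5 and Tuba1b changed sign. Without cells of 3 or more other-type marker UMIs as counted above, a comparison chosen after seeing the data, 15 of the 22 passed with edgeR. Astroglia and oligodendrocyte precursor markers were not part of that limit. DESeq2 passed 2 of the 22 genes, Hist1h1b (adjusted p = 0.048) and Tubb5 (0.039), and 5 genes in all passed with edgeR without mouse 4.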

How the data were processed

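Single-cell RNA was measured in tumours of 4 mice, 1 10x Chromium 3′ library per mouse. Per the labels' protocols, tissue was dissociated with Accutase for 20 minutes, dead cells were sorted out with 7-AAD and 10000 cells were loaded; the library of mouse 1 was sequenced at more than 1 time. The deposited values are whole-number UMI counts per gene and barcode, made by the authors without normalisation, per the file headers and values. The submitters' processing notes name Cell Ranger 2.0.2, Seurat and build mm10; the annotation release is not given in the sources used here. The files hold 27998 genes and 5670 barcodes, the design text states 4749 cells, and its limits are not given. Libraries hold 1679285 to 3801197 UMIs, and 20 barcodes are shared between pairs of libraries, 0 of them Cdkn1a-positive in both. Intervals cover counting error only.

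The cells and gene lists were chosen with earlier results of these data known. Each Cdkn1a-positive cell was paired with the cell of 0 UMIs nearest in log total UMIs in its mouse, without replacement. UMIs were summed per mouse and set and tested with edgeR 4.0.16 (TMM, filterByExpr, quasi-likelihood, R 4.3.3), adjusted over all genes tested, threshold 0.05. The mouse was a block because both sums come from 1 animal; their deviations correlated at 0.211 to 0.506. p-values measure how the difference within a mouse varies over these 4 littermates, and edgeR also shares its variance estimates across genes. They do not cover the choice of matched cells. Cell cycle classes came from scanpy 1.11.5 (Python 3.11.15) on the S phase and G2 and mitosis lists after thinning. Scrublet called 6 to 11 doublets per library; they were removed only in an alternative. Genes were named by a rule: Cdkn1a and 17 set genes, up to 4 that passed in each list, and up to 10 in each direction outside the lists. 1 S phase gene that passed is not reported here. Other genes named were chosen after their values were seen. Alternatives included DESeq2 1.42.0, other matching, filters and leaving out each mouse.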

Additional observations from a re-analysis of the deposited data

Results flagged for a closer look

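The share of tumour cells with a Cdkn1a UMI, after each cell was thinned to 1500 UMIs, was 23.5% in mouse 3, far from the 9.21%, 9.89% and 11.6% of mice 1, 2 and 4. Its gap to the nearest mouse, relative to the range, exceeded Dixon's limit for 4 samples, and was the 1 such value among 38 examined; chance gives about 1 in 20. Mouse 3 also had the shallowest tumour cells, and the part of depth, free RNA and the mouse itself was not tested.

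Data outside the comparisons also held Cdkn1a. Of the 178 barcodes that the 7 genes set aside, 22.5% held a Cdkn1a UMI (exact Clopper-Pearson 95% interval 16.6 to 29.3), against 21.5% of all tumour cells.

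A single barcode of mouse 4 with myeloid transcripts held 40 Cdkn1a UMIs among 4190, more than any tumour cell. It also held 305 UMIs of Apoe, 46 of Ccl3, 39 of Ccl4 and 31 of C1qb, with 30 each of Fos and Btg2.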

How the results depend on the processing

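The number of genes that passed was 22 with 1 matched cell for each positive cell. With up to 3 nearest cells, which kept 116 of the 133 positive cells of mouse 3, it was 96. The number was 109 against all cells of 0 UMIs, 14 with each cell thinned to 1500 UMIs, and 1 with positive cells of 2 or more UMIs. It was 2 with DESeq2, 0 with no replicate block (170 at an unadjusted p below 0.05) and 0 among cells of neither cell cycle class (102 unadjusted), a comparison chosen after seeing the data. The cause of these changes was not tested. Without each mouse in turn, the number ranged between 5 and 22, with 14 without mouse 1, 12 without mouse 3 and 5 without mouse 4. Among cells of neither class, where 10 of the 22 genes could be tested, log2 fold changes turned to 0.18 for Tubb4b, 0.26 for Cenpa, -0.075 for Tubb5 and -0.00056 for Tuba1b. Of the 22 genes, 16 passed in the same direction with 3 nearest cells, 17 against all cells of 0 UMIs and 17 when matched within cell cycle class. Without cells of 3 or more other-type marker UMIs, also chosen after seeing the data, 15 passed and all 15 were among the 22. That limit did not count astroglia and oligodendrocyte precursor markers. The count of p53 targets that passed was 0 in every alternative run. Between positive cells of 2 or more UMIs and of 1, leaving out 1 mouse gave 0 to 2 genes (2 without mouse 1, 1 without mouse 2), and no low-count filter gave 1. The Mki67 or Top2a difference ranged between 9.60 and 14.5 points without each mouse, and turned to -0.589 points for 2 or more UMIs of the G2 and mitosis list, which 97.5% of positive and 98.1% of matched cells held. The mean share of positive cells was 13.6% after thinning. Depth limits all of this: most positive cells hold 1 Cdkn1a UMI, so many cells of 0 UMIs may have expressed it.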

Other observations

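A barcode of mouse 3 that fell below the UMI limit, with 1151 UMIs, held 6 Cdkn1a UMIs and 22 UMIs of listed p53 targets, among them 5 of Gdf15, 3 of Ccng1 and 3 of Rps27l, and 3 of Hmox1. The tumour cell with the most Cdkn1a, 11 UMIs of 3073 in mouse 4, held 6 UMIs of those targets, 2 of them Rps27l and 2 Btg2, and 0 of Mdm2. Of the 2905 barcodes outside the quality limits, 5.78% held a Cdkn1a UMI at a median of 844 UMIs. Their summed level was 0.795 Cdkn1a UMIs per 10000.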
